A study of Mus musculus with 6 samples.

Results

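The histone genes on these arrays were read from 25 probe sets that each name 1 histone gene alone, out of 45033 probe sets tested. They were chosen by gene symbol in the platform annotation and stand for 18 genes out of 18192 with a probe set of their own. Of the 25 probe sets, 13 belong to 9 replication-dependent genes, 1 to the testis gene H1f6, and 11 to 8 variant genes. Expression was measured in C2C12, a line of mouse myoblasts, muscle precursors that stop dividing and fuse into myotubes when serum is lowered. Cells of the knockdown group had been transfected with a short hairpin RNA (shRNA) directed at PRDM2, a histone methyltransferase, and control cells with an shRNA to GFP. Both groups were kept for 28 hours in medium with 2% horse serum and gave 3 arrays each, called biological replicates 1 to 3 by the labels. The labels do not say whether a group was a pool or 1 clone, nor whether replicates were separate cultures, so p-values measure the spread between these samples.

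Histones H2A, H2B, H3 and H4 form the nucleosome core around which DNA is wrapped, and the linker histone H1 binds where DNA enters and leaves it. Replication-dependent histone genes lie in clusters and supply new chromatin during S phase. Most of their mRNA ends in a stem-loop bound by the protein Slbp in place of a poly(A) tail, although some of these genes also give polyadenylated mRNA in differentiated cells. Variant histones such as H2A.Z and H3.3 are made throughout the cell cycle from polyadenylated mRNA and replace the core histones at particular sites. Standard Affymetrix labelling primes from the poly(A) tail, so mRNA that ends in a stem-loop may be poorly represented here.

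Promoter sequences are shown for the genes on which the results turn. H1f2 and H2bc22 had the probe sets with the largest positive differences. H1f4 and H2bc18 stand for an H1 and an H2B gene without such a difference, but both had weak signals. H2az1 stands for a variant. Each sequence is the stretch of 250 bases before the annotated start, 5′ to 3′ on the gene's strand, from RefSeq on build GRCm38.p6. Capitals mark matches on either strand to CCAAT, to the TATA box TATAAA, to the octamer ATTTGCAT, to the H1 box AAACACA and to the E2F forms TTTGGCGC and TTTCGCGC.
H1f2, chr13:23738557-23738806, plus strand: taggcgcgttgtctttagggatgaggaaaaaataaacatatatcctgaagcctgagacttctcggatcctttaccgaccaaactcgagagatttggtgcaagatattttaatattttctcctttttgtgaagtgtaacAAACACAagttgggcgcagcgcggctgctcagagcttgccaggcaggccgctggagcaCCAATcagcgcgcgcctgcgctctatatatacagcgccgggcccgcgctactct
H1f4, chr13:23622559-23622808, minus strand: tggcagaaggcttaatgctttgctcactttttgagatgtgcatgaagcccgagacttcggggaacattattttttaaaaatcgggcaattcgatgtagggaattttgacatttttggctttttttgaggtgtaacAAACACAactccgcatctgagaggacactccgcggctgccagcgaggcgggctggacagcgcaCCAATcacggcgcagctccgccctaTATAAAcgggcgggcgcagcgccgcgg
H2bc22, chr13:21787238-21787487, plus strand: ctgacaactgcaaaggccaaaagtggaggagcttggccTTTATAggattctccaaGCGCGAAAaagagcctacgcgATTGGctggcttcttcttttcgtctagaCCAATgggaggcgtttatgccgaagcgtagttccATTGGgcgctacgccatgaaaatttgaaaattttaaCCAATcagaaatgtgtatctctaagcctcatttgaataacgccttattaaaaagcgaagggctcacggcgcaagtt
H2bc18, chr3:96269450-96269699, plus strand: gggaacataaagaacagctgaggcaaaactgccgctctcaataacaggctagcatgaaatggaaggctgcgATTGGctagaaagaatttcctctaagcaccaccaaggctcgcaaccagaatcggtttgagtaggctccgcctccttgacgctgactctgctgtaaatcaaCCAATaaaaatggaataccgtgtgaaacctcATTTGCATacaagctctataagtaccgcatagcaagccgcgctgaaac
H2az1, chr3:137864237-137864486, plus strand: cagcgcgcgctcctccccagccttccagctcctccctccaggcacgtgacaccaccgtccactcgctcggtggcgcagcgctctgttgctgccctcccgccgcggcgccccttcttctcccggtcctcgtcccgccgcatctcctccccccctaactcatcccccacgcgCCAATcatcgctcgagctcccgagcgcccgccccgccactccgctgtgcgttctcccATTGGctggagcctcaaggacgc
H1f2 and H1f4 share an H1 box, whose first base lies 112 bases before the start in H1f2 and 115 in H1f4, and a CCAAT box that begins 54 and 52 bases before it. H2bc18 holds an octamer that begins 48 bases before its start, an element known from H2B promoters. H2bc22 holds 4 CCAAT matches and 1 match to the second E2F form, read on the opposite strand. Windows matched 16 of the 18 genes, 7 of them replication-dependent and 8 variant. CCAAT or its reverse stood in 14 of the 16 windows, including 7 of 7 replication-dependent and 6 of 8 variant ones, against 33.8% of 32851 windows of all genes. TATAAA or its reverse stood anywhere in 4 of 7 replication-dependent and 1 of 8 variant windows, against 12.4% of all windows. The match began 27 bases before the start in H1f4, but 212 bases before it and on the opposite strand in H2bc22. Only exact letters were counted, so related letters such as tatatata near the start of H1f2 are not among the matches. The H1 box was found in 4 of the 16 windows (6.25% of all), the octamer in 2 (1.6% of all), the second E2F form in 1 (0.256% of all) and the first in 0 (0.417% of all). These matches describe letters in a window and do not show that a factor binds there.

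Values are given as log2(intensity + 16) after quantile normalization, a scale with a floor at 4 on which the median probe set stood at 4.76, and differences are those of the arrays labelled knockdown minus the control arrays. The brightest Prdm2 probe set read 6.67, 6.32 and 6.02 on the arrays labelled knockdown replicates 1, 2 and 3, against 6.19, 6.42 and 5.94 on control replicates 1, 2 and 3. Its log2 fold change was 0.15 (SE 0.19), and the other 2 Prdm2 probe sets stood at 0.07 and 0.12. Since the targeted mRNA was not lower on those arrays, only the labels give the direction of each difference. The array labelled control replicate 2 stood apart from the other controls. Over the 11259 brightest probe sets the median absolute deviation of its log2 difference was 0.08 from the array labelled knockdown replicate 2, against 0.37 from control replicate 3 and 0.38 from control replicate 1. Whether the arrays numbered 2 share RNA or carry exchanged labels was not tested, and n = 3 counts them as separate samples. The plot of log2 fold changes shows the 25 histone probe sets with and without control replicate 2, and the larger shifts are also given in words. The cells carried myogenic markers, with 10 of 10 at or above the median probe set, among them Myog at 11.02, 11.17 and 10.85 on the arrays labelled knockdown, against 10.74, 11.17 and 10.83 on the control arrays. Myod1 had a log2 fold change of 0.03 (SE 0.12). Of the 10, 9 had a log2 fold change above 0 and 1 below it, against 50% on each side over all probe sets. The median of the 10 was 0.13, and 0.18 without control replicate 2. With limma 0 of the 10 were called, against 0% of all probe sets. The mean of the 10 was 10.69, 10.62 and 10.72 on the arrays labelled knockdown, against 10.40, 10.62 and 10.68 on the control arrays. At or above the median probe set were also 6 of 8 fibroblast and smooth muscle markers, and 1 of 6 adipocyte and blood cell markers (Csf1r). The median intensity of an array lay between 10.7 and 11.4 units, so this cut-off is low.

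No histone probe set passed the test between the groups when all 6 arrays were used. With limma, 0 of the 25 passed an adjusted p of 0.05 in either direction, and 0% of all 45033 probe sets did. At an unadjusted p under 0.05 there were 0 histone probe sets, against 1.13% of all probe sets higher and 1.82% lower. The knockdown and control values overlapped for 25 of 25 histone probe sets, where 3.18% of all probe sets lay wholly higher and 4.06% wholly lower on the arrays labelled knockdown. Of the 25, 11 had a log2 fold change above 0 and 14 below it, against 50% on each side over all probe sets.

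Replication-dependent and variant genes, classed by symbol alone and read apart, both centred near 0. The 13 replication-dependent probe sets had a median log2 fold change of -0.03 and a range of -0.23 to 0.47, with 6 above 0 and 7 below. The 11 variant probe sets had a median of -0.0065 and a range of -0.25 to 0.05, with 5 above 0 and 6 below. Over all probe sets the median was -2.9e-05. Without control replicate 2 the medians were 0.04 for replication-dependent and -0.07 for variant probe sets, against -0.0032 over all. Dim probe sets weigh on these medians, since 7 of the 13 and 6 of the 11 stood at or above the median probe set. With dim probe sets left out and all 6 arrays, the medians were 0.04 and -0.07.

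Other sets of arrays gave more calls over all probe sets and 1 among histones. Without control replicate 2, limma called 0 histone probe sets in either direction at an adjusted p of 0.05, against 0.266% of all probe sets higher and 0.262% lower. At an unadjusted p under 0.05 it gave 3 histone probe sets higher and 0 lower, against 5.09% and 5.16% of all. Without both arrays numbered 2 the adjusted counts were 0 and 0, against 0.0555% and 0.0711%, and the unadjusted counts 3 and 2, against 4.8% and 5.15%. When the number also entered that fit as a block, 1 histone probe set passed higher and 0 lower, against 0.899% and 0.693%, and 3 and 2 passed unadjusted, against 6.58% and 6.74%. This blocked fit had 2 arrays per group and 1 residual degree of freedom per probe set. With all 6 arrays and the block, 0 and 0 passed adjusted, against 0% of all, and 3 and 0 unadjusted, against 3.78% and 4.06%. The 3 higher in each of these fits were the 2 bright H1f2 probe sets and H2bc22, and the 2 lower were H2bc21 (1447854_s_at) and H2az2 (1428029_a_at).

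**Figure D1:**
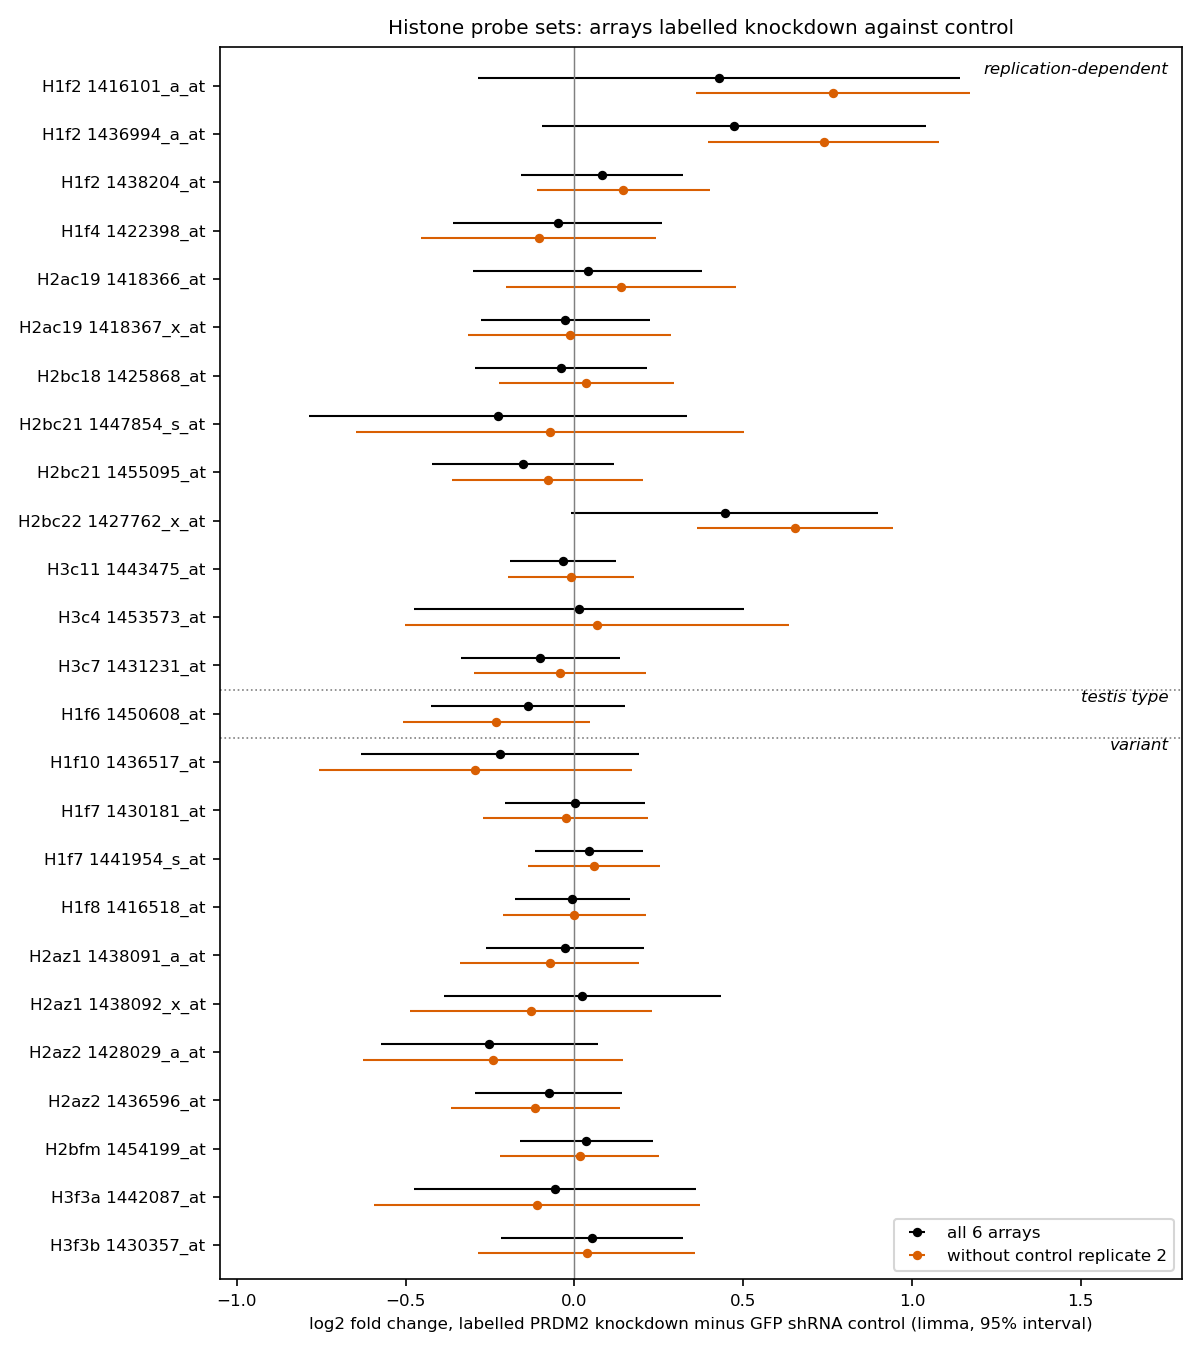
Log2 fold change of each of the 25 histone probe sets, arrays labelled PRDM2 knockdown minus GFP shRNA control, with limma's 95% interval, from all 6 arrays (black) and without control replicate 2 (orange). With all 6 arrays each interval covers 0, and without control replicate 2 the intervals of 2 H1f2 probe sets and of H2bc22 lie above 0 before adjustment.

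Among linker histones, H1f2, which encodes the replication-dependent subtype H1.2, had the largest differences, in 2 of its 3 probe sets. Probe set 1416101_a_at read 9.03, 9.48 and 9.27 on the arrays labelled knockdown replicates 1, 2 and 3, against 8.32, 9.51 and 8.67 on control replicates 1, 2 and 3. Control replicate 2 was the highest of the 6, so the groups overlapped, while the other 2 control arrays were below every knockdown array. With n = 3 per group the log2 fold change came to 0.43 (SE 0.30, limma 95% interval -0.29 to 1.14, adjusted p = 1). Probe set 1436994_a_at read 9.05, 9.30 and 9.08 on the arrays labelled knockdown, against 8.22, 9.20 and 8.59 on the control arrays. Here too control replicate 2 lay among the knockdown arrays and control replicates 1 and 3 below them. The difference came to 0.47 (SE 0.24, limma interval -0.10 to 1.04, adjusted p = 1).

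Both bright H1f2 probe sets depended on which control array was left out. For 1416101_a_at the log2 fold change was 0.77 (SE 0.17, limma adjusted p = 0.16) without control replicate 2 and 0.17 (SE 0.27) without control replicate 1. For 1436994_a_at these values were 0.74 (SE 0.14, limma adjusted p = 0.11) and 0.25 (SE 0.20). Leaving out knockdown replicate 2, the array closest to control replicate 2, gave 0.32 (SE 0.35) in 1416101_a_at and 0.39 (SE 0.28) in 1436994_a_at. The difference within a number was 0.71, -0.03 and 0.60 for numbers 1, 2 and 3 in 1416101_a_at, and 0.83, 0.10 and 0.49 in 1436994_a_at. With both arrays numbered 2 left out and the number as a block, 1416101_a_at rose by 0.66 (SE 0.09, limma adjusted p = 0.041) and 1436994_a_at stood at 0.66 (SE 0.12, adjusted p = 0.066). The pass of 1416101_a_at was the 1 histone call in any fit run, and without the block its adjusted p was 0.28 (limma). The blocked fit rested on a pairing by number that was not shown for number 1. It had 2 arrays per group and 1 residual degree of freedom per probe set. Its SE therefore came largely from the variance limma pools over all probe sets, not from the spread of H1f2 itself. The third H1f2 probe set, 1438204_at, stayed between 4.64 and 4.95 on all 6 arrays, near the scale's floor, with a log2 fold change of 0.08 (SE 0.10).

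The other linker histones lay flat or on the lower side. H1f4, the replication-dependent subtype H1.4, was near the floor, with 4.46, 4.09 and 4.08 on the arrays labelled knockdown and 4.41, 4.15 and 4.22 on the control arrays. H1f10, a replication-independent linker histone, read 6.91, 7.20 and 7.58 on the arrays labelled knockdown, against 7.48, 7.31 and 7.57 on the control arrays. Its log2 fold change of -0.22 (SE 0.17, limma adjusted p = 1) came mostly from knockdown replicate 1, without which it was -0.06 (SE 0.15), and it was -0.39 (SE 0.13) without knockdown replicate 3. H1f6, the linker histone of testis, read 4.82, 5.04 and 5.14 on the arrays labelled knockdown, against 5.22, 4.95 and 5.25 on the control arrays, a log2 fold change of -0.14 (SE 0.12).

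**Figure D2:**
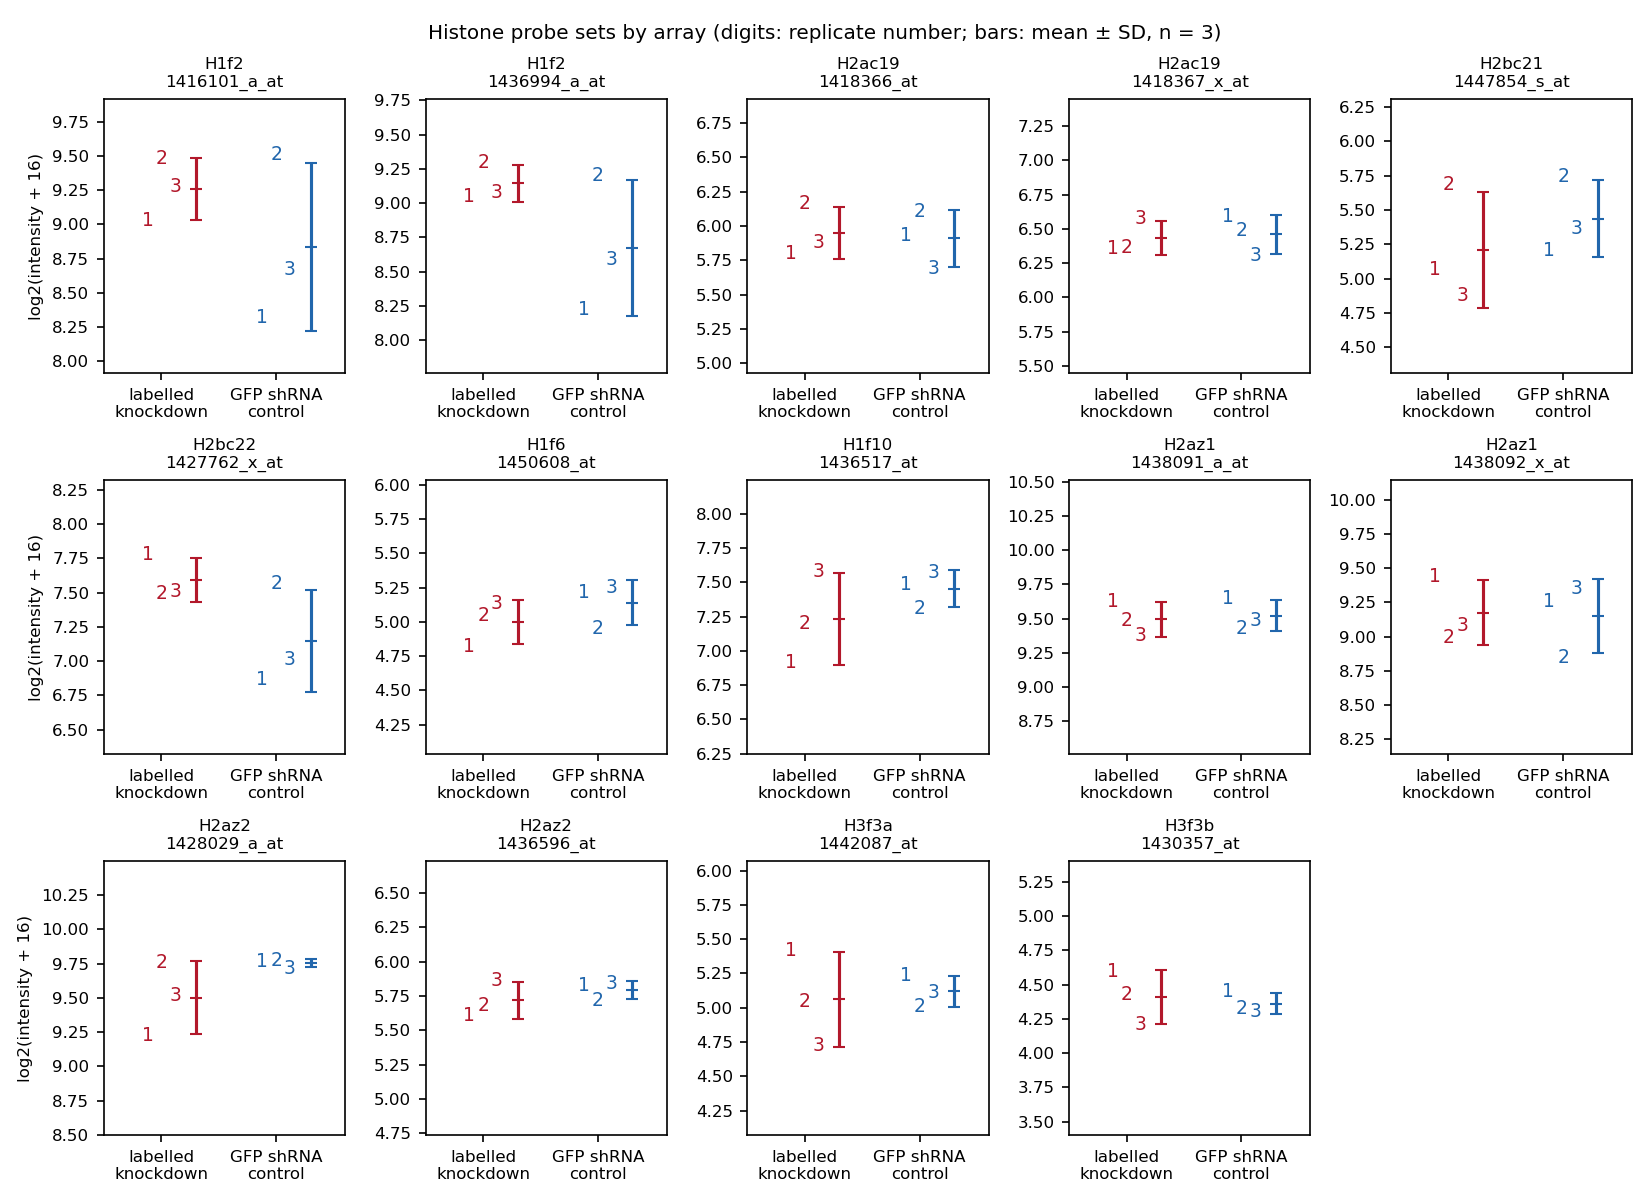
Level of 14 histone probe sets by array, as log2(intensity + 16) with a span of 2 log2 units in every panel, arrays labelled PRDM2 knockdown on the left and GFP shRNA control on the right. Digits are replicate numbers and bars mean ± SD (n = 3), and for H1f2 and H2bc22 control replicate 2 sits with the knockdown arrays.

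Of the H2B genes, H2bc22 followed the pattern of H1f2 and H2bc21 did not. H2bc22, a replication-dependent gene on chromosome 13, as is H1f2, read 7.78, 7.49 and 7.50 on the arrays labelled knockdown replicates 1, 2 and 3, against 6.87, 7.56 and 7.01 on control replicates 1, 2 and 3. Control replicate 2 again lay inside the knockdown range and the other 2 controls below it. The difference came to 0.44 (SE 0.19, limma interval -0.01 to 0.90, adjusted p = 1) and to 0.65 (SE 0.12, limma adjusted p = 0.10) without control replicate 2. It was 0.30 (SE 0.19) without control replicate 1 and 0.49 (SE 0.23) without knockdown replicate 2. The differences within numbers 1, 2 and 3 were 0.91, -0.07 and 0.50. The suffix of its probe set, 1427762_x_at, marks probes that can match related transcripts, so other H2B mRNA may contribute.

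H2bc21, an H2B gene of the cluster on chromosome 3, read 5.07, 5.68 and 4.88 on the arrays labelled knockdown, against 5.20, 5.74 and 5.36 on the control arrays (1447854_s_at). Both arrays numbered 2 were the highest of their group. The log2 fold change was -0.23 (SE 0.23, limma adjusted p = 1), and the differences within numbers 1, 2 and 3 were -0.13, -0.06 and -0.49. It was -0.46 (SE 0.18) without knockdown replicate 2, -0.06 (SE 0.24) without knockdown replicate 3 and -0.07 (SE 0.24) without control replicate 2. The second probe set of H2bc21, 1455095_at, never read above 16 units. It stood at -0.15 (SE 0.11), also below its control within each number, by only -0.02 in number 1. H2bc18, another H2B gene of chromosome 3, read above 16 units on only 1 array and stood at -0.04 (SE 0.11).

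The H2A and H3 genes of the replication-dependent class showed no separation. H2ac19, an H2A gene, read 5.80, 6.16 and 5.88 on the arrays labelled knockdown and 5.93, 6.11 and 5.69 on the control arrays in 1418366_at. Its other probe set, 1418367_x_at, read 6.36, 6.37 and 6.58 on the arrays labelled knockdown and 6.59, 6.49 and 6.31 on the control arrays. The log2 fold changes of 0.04 (SE 0.14) and -0.03 (SE 0.10) changed sign with the array left out. The H3 genes H3c4, H3c7 and H3c11 stayed between 4.19 and 4.99, at or near the floor, with log2 fold changes from -0.10 to 0.01.

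**Figure D3:**
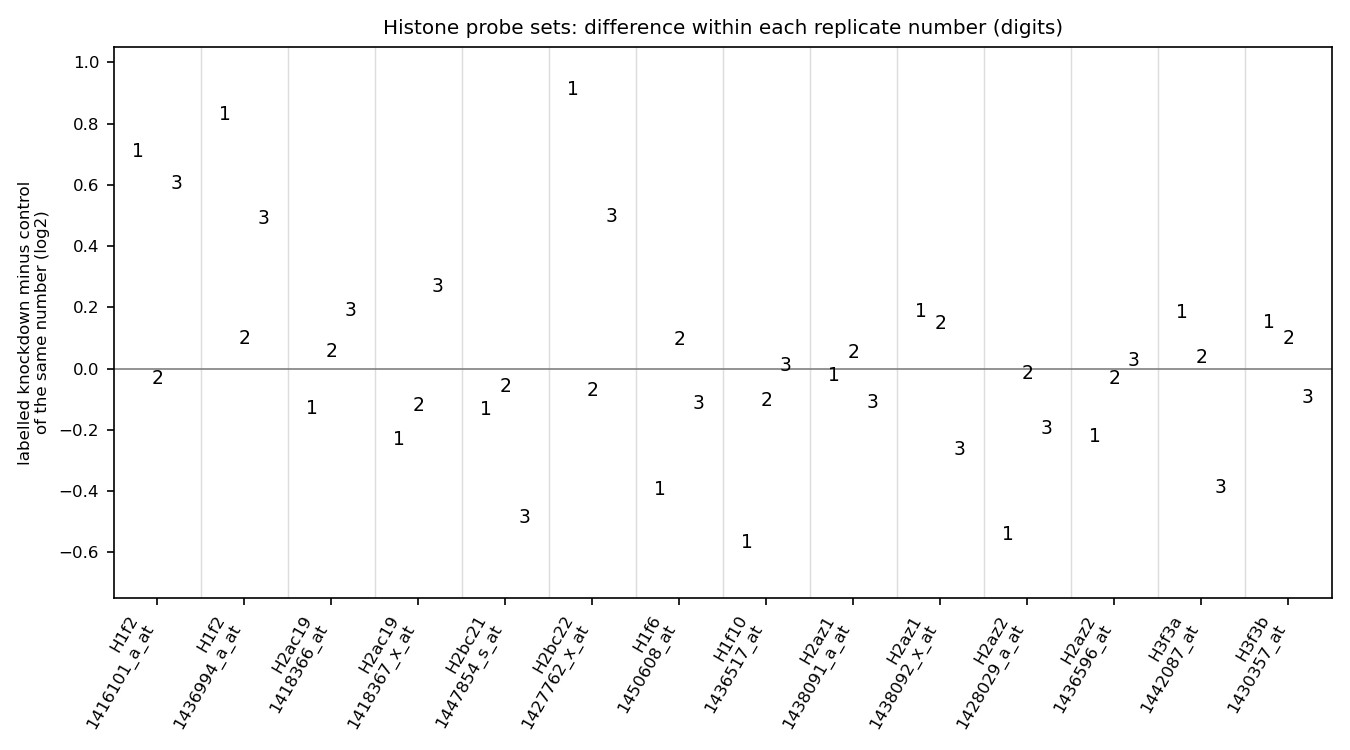
Difference between the array labelled PRDM2 knockdown and the GFP shRNA control array of the same number, in log2 units, for the same 14 histone probe sets. Digits are the replicate numbers, and those of number 2 lie between -0.12 and 0.15 while number 1 reaches 0.91 in H2bc22 and -0.57 in H1f10.

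The spread within numbers was uneven. Over the 14 histone probe sets at or above the median probe set, the median absolute difference was 0.23 for number 1, 0.06 for number 2 and 0.23 for number 3. Over all 22517 probe sets at or above the median it was 0.19, 0.06 and 0.13. In 3 of the 25 histone probe sets the array labelled knockdown was higher in all 3 numbers, and in 5 it was lower, against 14% and 15.2% of all probe sets. The 3 were 2 of H1f2 (1436994_a_at and the dim 1438204_at) and 1 of H1f7. The 5 were both of H2bc21 (1447854_s_at and the dim 1455095_at) and 1 each of H2bc18, H3c11 and H2az2. A count near the share of all probe sets says nothing particular about histones.

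H2A.Z, the H2A variant placed at promoters, is encoded by H2az1 and H2az2. H2az1 read 9.63, 9.48 and 9.37 on the arrays labelled knockdown, against 9.65, 9.43 and 9.49 on the control arrays in 1438091_a_at. Its second probe set, 1438092_x_at, read 9.44, 8.99 and 9.08 on the arrays labelled knockdown and 9.25, 8.84 and 9.35 on the control arrays. The log2 fold changes were -0.03 (SE 0.10, interval -0.26 to 0.21) and 0.02 (SE 0.17, interval -0.39 to 0.43), and neither kept its sign under every alternative.

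H2az2 was the lowest of the 25. Its bright probe set, 1428029_a_at, read 9.23, 9.76 and 9.52 on the arrays labelled knockdown, against 9.77, 9.77 and 9.72 on the control arrays. The control arrays had an SD of 0.03 (n = 3), and the 2 groups overlapped only through knockdown replicate 2. The difference came to -0.25 (SE 0.13, limma interval -0.57 to 0.07, adjusted p = 1) and to -0.11 (SE 0.10) without knockdown replicate 1. Without knockdown replicate 2 it was -0.38 (SE 0.11, limma adjusted p = 1.00). The dimmer probe set, 1436596_at, read 5.61, 5.68 and 5.86 on the arrays labelled knockdown and 5.83, 5.71 and 5.84 on the control arrays, a log2 fold change of -0.08 (SE 0.09).

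H3.3, the H3 variant deposited outside replication, is encoded by H3f3a and H3f3b, and their single-gene probe sets were dim. H3f3a read 5.42, 5.05 and 4.72 on the arrays labelled knockdown, against 5.24, 5.01 and 5.11 on the control arrays, a log2 fold change of -0.06 (SE 0.17). H3f3b read 4.60, 4.43 and 4.21 on the arrays labelled knockdown, against 4.45, 4.33 and 4.30 on the control arrays, a log2 fold change of 0.05 (SE 0.11). The groups overlapped in both. The germ line histones H1f7, of spermatids, and H1f8, of oocytes, and the H2B-type gene H2bfm stayed between 4.03 and 4.35 on every array. Of the 25 probe sets, 11 never read above 16 units on any array and 10 did so on all 6. The 11 probe sets outside the rule for array-by-array values spanned log2 fold changes of -0.15 to 0.08.

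The variant genes H2ax and Macroh2a1 carry symbols outside those used to choose the 25 and lay above 0. H2ax, the variant phosphorylated at DNA breaks, read 8.79, 8.95 and 8.90 on the arrays labelled knockdown, against 8.39, 8.98 and 8.51 on the control arrays, a log2 fold change of 0.25 (SE 0.16, limma adjusted p = 1). As in H1f2, control replicate 2 was the highest of the 6, and without it the value was 0.43 (SE 0.09, limma adjusted p = 0.15). Macroh2a1, which encodes the macroH2A1 variants, read 8.18, 8.19 and 7.87 on the arrays labelled knockdown, against 7.88, 8.11 and 7.67 on the control arrays, a log2 fold change of 0.19 (SE 0.14), and of 0.31 (SE 0.13, limma adjusted p = 0.53) without control replicate 2.

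Many histone probe sets of this array name several genes and are not among the 25. There were 24 of these, 0 of which passed with limma at an adjusted p of 0.05. At an unadjusted p under 0.05 there were 2 higher and 0 lower, against 1.13% and 1.82% of all probe sets. Groups without overlap were seen in 3, higher on the arrays labelled knockdown, and in 0 lower, against 3.18% and 4.06% of all probe sets. One that names several H2B genes, 1418072_at, read 8.62, 8.24 and 8.29 on the arrays labelled knockdown, against 7.28, 8.23 and 7.63 on the control arrays. Its log2 fold change was 0.67 (SE 0.24, limma adjusted p = 1), and 0.93 (SE 0.16, limma adjusted p = 0.087) without control replicate 2. Another H2B probe set, 1452540_a_at, read 8.82, 8.39 and 8.49 on the arrays labelled knockdown, against 7.67, 8.34 and 7.90 on the control arrays, a log2 fold change of 0.60 (SE 0.19), and of 0.78 (SE 0.15, limma adjusted p = 0.11) without control replicate 2. In both, control replicate 2 lay closest to the knockdown arrays. The genes named by 1452540_a_at include those of 1418072_at and also H2bc22, so these rises are not separate. A further probe set of the same genes as 1418072_at went the other way: 1445565_at read 5.64, 5.34 and 5.68 on the arrays labelled knockdown, against 6.15, 5.19 and 6.08 on the control arrays. Its log2 fold change was -0.25 (SE 0.26), and -0.56 (SE 0.12, limma adjusted p = 0.16) without control replicate 2, so probe sets of the same genes disagreed. The brightest probe set of replication-dependent genes, 1438009_at, names several H2A genes and stood at -0.04 (SE 0.16). H2B probe sets 1425398_at and 1440330_at, near the floor, stood at 0.05 (SE 0.10) and 0.01 (SE 0.09). Probe sets of several replication-dependent H3 genes ranged from -0.09 to 0.03. The 5 probe sets that name H4 genes alone lay between 4.02 and 6.08, with log2 fold changes from -0.09 to 0.33. The highest, 1424854_at, stood at 0.58 (SE 0.11, limma adjusted p = 0.11) without control replicate 2. The 5 that name H3.3 genes with related copies lay between 9.77 and 10.99, with log2 fold changes from -0.13 to 0.11. Of these, 1420376_a_at was the third without overlap, with 10.27, 10.20 and 10.29 on the arrays labelled knockdown, against 10.12, 10.16 and 10.14 on the control arrays.

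Genes that make histone mRNA or carry histones gave no calls. Of 17 genes for histone mRNA synthesis and 3′ processing 0 were called higher and 0 lower with limma, and at an unadjusted p under 0.05 there were also 0, with a median log2 fold change of 0.0072. The 3 of smallest p were Zfp473, a zinc finger protein of histone pre-mRNA processing, at 0.15 (SE 0.07) but close to the floor, Npat, the coactivator of histone transcription, at 0.16 (SE 0.12), and Sympk, a scaffold of the 3′ cleavage complex, at 0.13 (SE 0.12). Slbp read 7.91, 7.75 and 8.04 on the arrays labelled knockdown, against 8.11, 7.67 and 8.09 on the control arrays. Of 21 histone chaperone and import genes measured 0 were called in either direction, 0 had an unadjusted p under 0.05, and the median was -0.0063. Npm1 and Nap1l1, which chaperone core histones, stood at 0.16 (SE 0.12) and 0.11 (SE 0.09), and Cabin1, a subunit of the HIRA complex that deposits H3.3, at -0.22 (SE 0.19). Without control replicate 2, Npat stood at 0.28 (SE 0.10, limma adjusted p = 0.37) and Cabin1 at -0.42 (SE 0.12, limma adjusted p = 0.29).

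S phase genes lay mostly below 0. Of 23 measured, 19 had a log2 fold change below 0 and 4 above, against 50% on each side over all probe sets, with a median of -0.16, and -0.33 without control replicate 2. None was called with limma (0 of 23), and at an unadjusted p under 0.05 there were 1 higher (Tk1) and 1 lower (Rfc5), against 1.13% and 1.82% of all probe sets. Of the 3 with the smallest p, Tk1, a thymidine kinase, stood at 0.43 (SE 0.17), Rfc5, of the clamp loader, at -0.27 (SE 0.10) and Rrm1, of ribonucleotide reductase, at 0.27 (SE 0.15). The list's mean was 7.37, 7.00 and 7.32 on the arrays labelled knockdown replicates 1, 2 and 3, against 7.63, 7.01 and 7.42 on control replicates 1, 2 and 3. The array with the highest S phase mean, control replicate 1, had the lowest H1f2 level in both bright probe sets. The 2 arrays numbered 2 had the lowest S phase means and the highest levels of 1416101_a_at. Pcna stood at -0.07 (SE 0.16), and Mki67 and Ccna2 at 0.30 (SE 0.16) and 0.06 (SE 0.08). Smooth muscle markers differed between the same control arrays, with Tagln at 10.60, 10.06 and 10.19 on the arrays labelled knockdown, against 8.63, 10.04 and 8.35 on the control arrays. The mean of these 8 fibroblast and smooth muscle markers was 7.85, 7.67 and 7.72 on the arrays labelled knockdown, against 7.01, 7.69 and 6.92 on the control arrays. With all 6 arrays limma called 0 of the 8, against 0% of all probe sets. At an unadjusted p under 0.05 there were 3, against 1.13% of all probe sets higher and 1.82% lower. Of the 8, 6 had a log2 fold change above 0 and 2 below it, with a median of 0.41. Without control replicate 2 limma called 2 higher (Tagln and Actg2) and 0 lower, against 0.266% and 0.262% of all probe sets, with a median of 0.82. The part of these gene groups in the H1f2 difference was not tested.

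**Figure D4:**
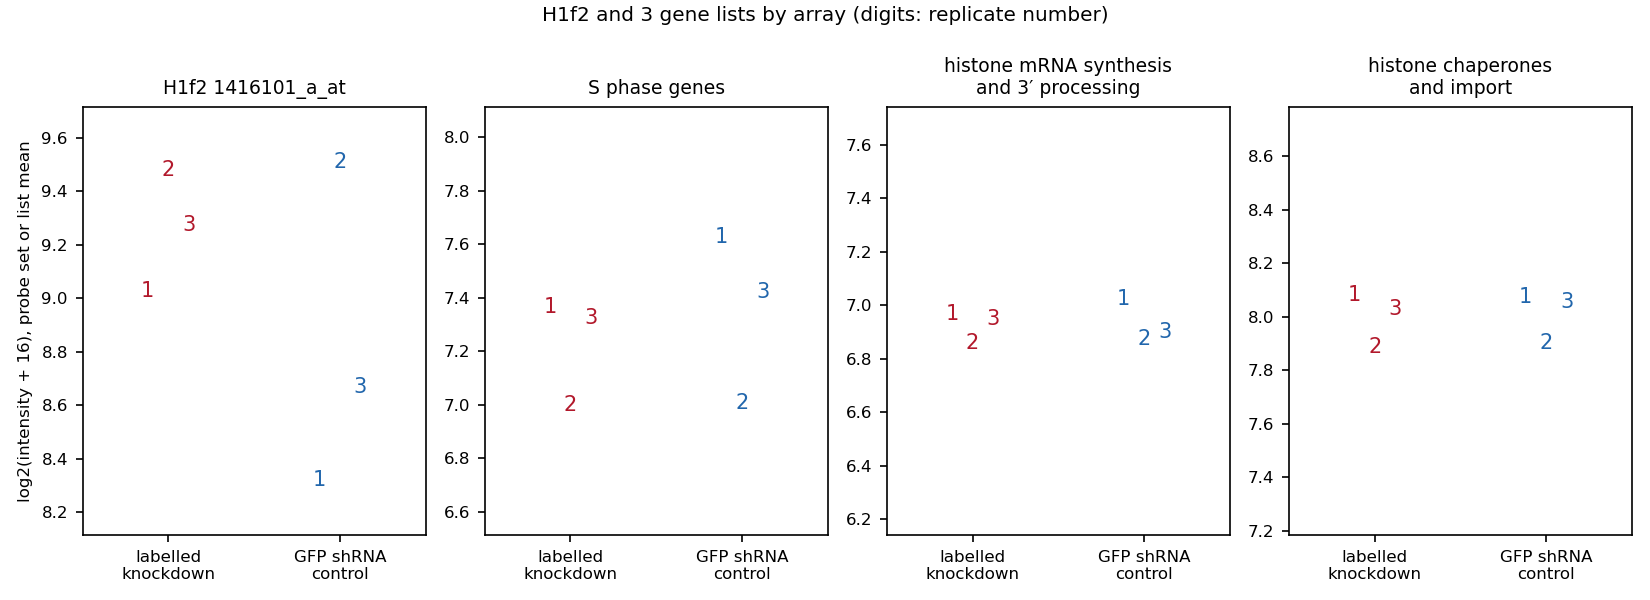
Level of the H1f2 probe set 1416101_a_at and mean level of 3 gene lists by array, as log2(intensity + 16) with a span of 1.6 log2 units in every panel, arrays labelled PRDM2 knockdown on the left and GFP shRNA control on the right. Digits are replicate numbers, and control replicate 1 is lowest for H1f2 and highest for S phase genes.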

How the data were processed

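Per the labels' protocols, Trizol was used to extract RNA and 8 ug of it per array was turned into biotin-labelled cRNA. The authors deposited 1 intensity per probe set and array, not on a log scale. The submitters' processing notes name GCOS and PLIER, and the scaling between arrays and a genome build are not given in the sources used here. Of 45101 probe sets on 6 arrays, 64 control probe sets and 4 whose value in 1 array equalled their gene's Entrez number were left out.

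In the platform annotation 34941 probe sets name 1 gene, 932 name several and 9160 are unnamed here. Older symbols, through a RefSeq gene table of GRCm38.p6, put H1f2 and H1f4 in the replication-dependent class. All classes follow symbols alone, for H2bc21 too, and whether a gene's mRNA depends on replication was not tested. The quartiles of the arrays differed by up to 0.15 in log2 units, so log2(intensity + 16) was quantile-normalized. Each probe set was fitted by limma (version 3.58.1, under R 4.3.3) with lmFit and eBayes and no block, and two-sided p-values were adjusted by Benjamini-Hochberg over all probe sets, with a threshold of 0.05. The procedure was tested on simulated data with independent noise in each array, which lack the deviations shared by arrays of the same number. The number of arrays limits the precision. Arrays with the same number deviated together from their groups, with correlations of 0.32, 0.60 and 0.62, all above the 0.1 set for pairing. On that rule the fit with the number as a block was read as paired. Deviations cancel out within a group, so 1 closely matched pair can raise the other correlations, which therefore cannot show pairing for each number. Knockdown replicate 1 had a median absolute deviation of 0.31 from control replicate 1, its largest from any array, and 0.20 from knockdown replicate 3. The arrays numbered 3 were each other's closest, at 0.20. The labels do not state the pairing.

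Array values are given for the 12 brightest members, the 3 highest and 3 lowest changes among members at or above the median probe set with all arrays and without control replicate 2, members called in any fit, and H2ax, Macroh2a1, H2az1, H3f3a, H3f3b and H1f10 (H1f0 was not analysed here). From each gene list of the histone supply and S phase the 3 genes of smallest p are named, with Prdm2, Pcna, Mki67, Ccna2, Myod1 and Myog in any case. Alternatives were the deposited scaling, median centring, another offset, a filter on dim probe sets, gene means, leaving out _x, _s and _a probe sets, and leaving out arrays. Values of H1f4 and other named genes, the several-gene probe sets and the within-number differences were added after the values were seen. The members, lists and motifs were chosen with earlier results of these data known, and the H1 box after the promoter windows were read.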

Additional observations from a re-analysis of the deposited data

How the results depend on the processing

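With both arrays numbered 2 left out and the replicate block, 1 histone probe set (H1f2, 1416101_a_at) was called higher, and no other alternative called any of the 25. The fit with that call had 2 arrays per group and 1 residual degree of freedom per probe set. It rested on a pairing by number that was not shown for number 1. Over all probe sets, 120 higher and 118 lower were called without control replicate 2, 25 and 32 without both arrays numbered 2, and 405 and 312 in the last of these fits with the replicate block. Leaving out 1 array at a time gave between 0 and 120 higher and between 0 and 118 lower, all from the fit without control replicate 2. With all 6 arrays the replicate block changed no call, and H1f2 (1436994_a_at) stayed at 0.47 (SE 0.14, limma adjusted p = 0.63). Medians under all alternatives lay between -0.07 and 0.04 for replication-dependent and between -0.07 and 0.06 for variant probe sets. Of 239 values of named probe sets under alternatives, 218 kept their direction and side of the threshold, 20 turned their sign and 1 passed the threshold, and the cause was not tested. H2ac19 (1418367_x_at) turned to 0.0057 with the mean of its probe sets and 0.019 without both arrays numbered 2, with or without the block. H2az1 (1438092_x_at) turned to -0.0054 with the deposited scaling, -0.0072 with median centring, -0.0019 with the mean of its probe sets and -0.039 without both arrays numbered 2, with or without the block. Without 1 array, H2ac19 ranged from -0.071 to 0.14 (1418366_at) and from -0.10 to 0.036 (1418367_x_at), H2az1 from -0.093 to 0.037 (1438091_a_at) and from -0.13 to 0.12 (1438092_x_at), H3f3a from -0.23 to 0.11 and H3f3b from -0.042 to 0.15. Of the 25 probe sets, 11 lay below the median probe set, where the offset of 16 compresses differences.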
